A study of Mus musculus with 4 samples.

Results

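The 8 genes described here encode the coreceptors CD8 and CD4 and surface proteins by which conventional T cells are recognised: *Cd8a*, *Cd8b1*, *Cd4*, *Cd2*, *Cd5*, *Cd6*, *Thy1* and *Ptprc*. They were chosen by name, without use of their values, and all 8 are among the 19339 genes listed in the tables. The cells are TCRαβ+CD8αα+ intraepithelial lymphocytes (IELs), T cells that live between the epithelial cells of the mouse small intestine, here of C57BL/6 mice whose age and sex are not given in the sources used here. They were sorted as CD45+CD4−TCRβ+CD8α+CD8β− cells and sequenced as RNA, with RNA of 3 mice of a genotype pooled in each library. Of the 4 libraries used, 2 came from *Kdm6b* F/F mice (control 1 and control 3, after the replicate numbers in the labels) and 2 from *Kdm6b* F/F-*CD4Cre* mice (CD4Cre-labelled 1 and 3). Both genotypes carry loxP-flanked *Kdm6b* alleles, which encode a demethylase of histone H3 lysine 27, and only the second carries the Cre recombinase. The Cre is driven by *Cd4* regulatory sequence and acts in the thymus in developing αβ T cells, so the deletion is not limited to IELs. The comparison addresses whether loss of Kdm6b goes with other RNA levels of these surface genes.

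CD8 and CD4 bind MHC molecules beside the T cell receptor and bring the kinase Lck to it. On conventional cytotoxic T cells CD8 is a heterodimer of an α and a β chain, whereas natural IELs carry the αα homodimer, which binds the thymus leukaemia antigen made by intestinal epithelium. Natural IELs are also known for low surface CD2, CD5 and Thy1 in comparison with conventional T cells, and keep CD45, the phosphatase encoded by *Ptprc*.

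Depth was nearly equal in 3 libraries. It was 0.834 times that of control 1 in CD4Cre-labelled 3, as judged from the FPKM that a single fragment gave in genes with 1 transcript (FPKM are fragments scaled to transcript length and to all mapped fragments). *Kdm6b*, the targeted gene, had 16.5 FPKM in control 1, 16.0 in control 3, 18.2 in CD4Cre-labelled 1 and 11.1 in CD4Cre-labelled 3. It was thus no lower in CD4Cre-labelled 1 than in the controls, and every direction given below is a direction between labels. The FPKM tables do not say which part of the gene the fragments came from. The libraries also held RNA of other cells. The 22 marker genes of intestinal epithelium, none of them at 0, summed to 1303 FPKM in control 1 and 4297 in control 3, and to 4041 and 10400 FPKM in CD4Cre-labelled 1 and 3. In bulk RNA, fewer cells of a type and less RNA per cell cannot be told apart, and the part of epithelial RNA in the values below was not tested.

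*Cd8a*, the chain of the αα homodimer, was among the highest genes of every library. It had 463 FPKM in control 1 and 418 in control 3, against 337 in CD4Cre-labelled 1 and 280.5 in CD4Cre-labelled 3. Both CD4Cre-labelled libraries lay below both controls, and *Cd8a* stood above 98.2% to 99.2% of the listed genes in each. The means were 440.4 ± 31.6 FPKM (SD, n = 2) and 309 ± 39.7 FPKM (SD, n = 2). On the log2(FPKM + 1) scale the difference of the group means, the log2 fold change, was −0.52 (standard error 0.20), with an unadjusted p of 0.0421 and an adjusted p of 0.755 from limma, so the gene did not pass the test. The 4 chains of the CD3 complex, which carry the signal of the T cell receptor, summed to 3137, 2448, 2509 and 1789 FPKM in the same order of libraries. As a share of that sum *Cd8a* was 14.8% and 17.1% in the controls and 13.4% and 15.7% in the CD4Cre-labelled pair, and the groups overlapped.

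*Cd8a* lies on chromosome 6 of GRCm38 at chr6:71373427-71379171 on the plus strand, and no other annotated gene overlaps it. The study's quantitative PCR primers for its messenger RNA and for the E8I enhancer, which drives CD8α in mature CD8 T cells and IELs, are shown because they fix where the authors read this gene and its control element. By exact match to GENCODE transcripts the messenger RNA pair sits in exon 1, at chr6:71373562-71373580 and chr6:71373662-71373682. The enhancer pair matches exon 2 of the annotated transcript Gm44175, at chr6:71357691-71357708 and chr6:71357771-71357787, with its nearer end 15640 bases before the start of *Cd8a*.
Cd8a messenger RNA forward: ccgttgacccgctttctgt
Cd8a messenger RNA reverse: cggcgtccattttctttggaa
E8I enhancer forward: tggttgcctctgctactt
E8I enhancer reverse: cacattcgcattggttt

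*Cd8b1*, the β chain that the sort excluded at the cell surface, was at the other end of the range. It was listed at 0 in control 1, where 3 fragments would have given 0.171 FPKM, and at 0.90 FPKM in control 3. CD4Cre-labelled 1 had 1.64 FPKM and CD4Cre-labelled 3 had 0.73, so the groups overlapped. These values stand for about 0, 16, 29 and 11 fragments of a 1483-base transcript, and counting error alone is large. The gene reached 1 FPKM in only 1 library and so was not among the genes tested. As a share of *Cd8a* it was 0% and 0.215% in the controls and 0.487% and 0.26% in the CD4Cre-labelled pair, higher in the latter by 0.266 percentage points and without overlap. As a share of *Cd3e* the groups overlapped (0% and 0.256%, against 0.459% and 0.24%, exact two-sided permutation p = 0.667). For the share of *Cd8a* the exact two-sided permutation p was 0.333, which is the smallest that 2 libraries against 2 can give. *Cd8b1* lies at chr6:71322788-71337492 on the same strand, 35934 bases before *Cd8a*.

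*Cd4* RNA was present in every library, although the sort left out cells with surface CD4. It had 30.6 FPKM in control 1 and 10.1 in control 3, and 30.5 in CD4Cre-labelled 1 and 3.17 in CD4Cre-labelled 3. The values went with the replicate number, both libraries numbered 1 lying above both numbered 3, and the groups overlapped (20.3 ± 14.4 and 16.8 ± 19.3 FPKM, SD, n = 2 each). The log2 fold change was −0.71 ± 1.01 (standard error), and limma gave an adjusted p of 0.866. As a share of *Cd8a*, *Cd4* was 6.60% and 2.42% in the controls and 9.05% and 1.13% in the CD4Cre-labelled pair. The log2 difference of this ratio was −0.32, with an exact two-sided permutation p of 1.0. Without CD4Cre-labelled 3 it was 1.18, and without control 1 it was 0.40. *Cd4* lies on the minus strand at chr6:124864693-124888247.

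**Figure D1:**
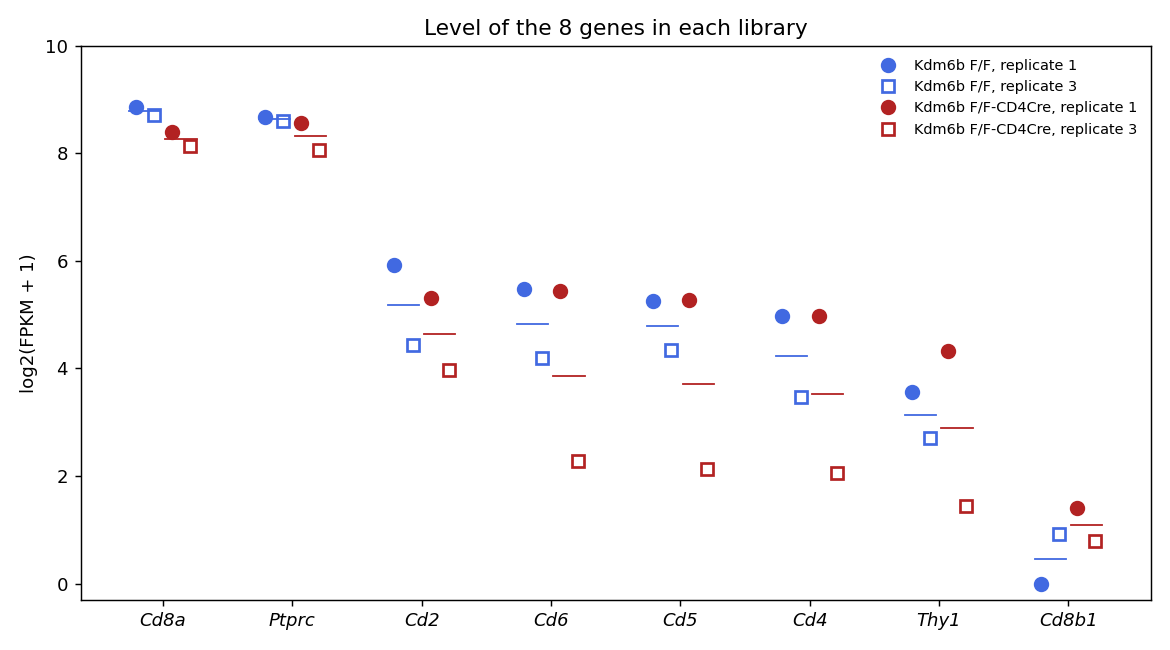
Levels of the 8 genes as log2(FPKM + 1) in each of the 4 libraries, with controls in blue, CD4Cre-labelled libraries in red, replicate 1 as circles and replicate 3 as open squares. Horizontal lines are group means. *Cd8a* and *Ptprc* stay within a narrow band at the top, *Cd2*, *Cd6*, *Cd5*, *Cd4* and *Thy1* have both circles above both squares, and *Cd8b1* lies at the bottom.

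*Cd5* and *Cd6* encode related scavenger receptors that restrain T cell receptor signalling. *Cd5* had 37.0 FPKM in control 1, 19.3 in control 3, 37.9 in CD4Cre-labelled 1 and 3.38 in CD4Cre-labelled 3. *Cd6* had 43.4, 17.3, 42.5 and 3.84 FPKM in the same order. Both genes were nearly alike in the libraries numbered 1, with log2 differences between labels of 0.03 for *Cd5* and −0.03 for *Cd6*. In the libraries numbered 3 the differences were −2.21 and −1.92. The group means of *Cd5* were 28.1 ± 12.5 and 20.6 ± 24.4 FPKM (SD, n = 2 each), and its log2 fold change of −1.09 ± 1.01 (standard error), with 0.809 as the adjusted p in limma, was the only one among these genes below −1. A value below −1 was found for 0.441% of all genes tested. Those of *Cd6* were 30.4 ± 18.4 and 23.2 ± 27.3 FPKM (SD, n = 2 each), with a log2 fold change of −0.98 ± 1.05 (standard error) and an adjusted p in limma of 0.832. Neither passed the test. The genes are neighbours on the minus strand of chromosome 19, *Cd5* at chr19:10718107-10739026 and *Cd6* at chr19:10789339-10830062, with 50312 bases between them.

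*Cd2*, an adhesion receptor that binds CD48 on other cells, had 59.6 FPKM in control 1, 20.7 in control 3, 38.5 in CD4Cre-labelled 1 and 14.8 in CD4Cre-labelled 3. Both libraries numbered 1 were again above both numbered 3. Its same-numbered differences had 1 sign and similar sizes, −0.62 for number 1 and −0.46 for number 3. With group means of 40.1 ± 27.4 and 26.6 ± 16.8 FPKM (SD, n = 2 each), the log2 fold change was −0.54 ± 0.62 (standard error), and limma gave an adjusted p of 0.841. The gene lies on the minus strand at chr3:101275908-101287939.

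*Thy1*, the glycolipid-anchored protein by which mouse T cells are often gated, was the lowest of the 7 genes tested in each library. It had 10.8 FPKM in control 1, 5.50 in control 3, 19.1 in CD4Cre-labelled 1 and 1.73 in CD4Cre-labelled 3. The CD4Cre-labelled pair thus held both the highest and the lowest value, about 397 and 30 fragments, and the means were 8.16 ± 3.75 and 10.4 ± 12.3 FPKM (SD, n = 2 each). Its same-numbered differences had opposite signs, 0.77 for number 1 and −1.25 for number 3. The log2 fold change of −0.24 ± 0.94 (standard error), with 0.958 as the adjusted p in limma, was less than the spread between libraries, and its sign was not that of the difference of the FPKM means. The gene lies on the plus strand at chr9:44043384-44048579.

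*Ptprc*, the CD45 phosphatase that keeps Lck active and was itself used in the sort, varied least. It had 410.3 FPKM in control 1 and 389 in control 3, against 377 in CD4Cre-labelled 1 and 268 in CD4Cre-labelled 3. Both CD4Cre-labelled libraries lay below both controls, by 0.12 (number 1) and 0.53 (number 3) on the log2 scale between same-numbered libraries. The means were 399.8 ± 14.9 and 323 ± 77.0 FPKM (SD, n = 2 each), with a log2 fold change of −0.33 ± 0.23 (standard error) and an adjusted p in limma of 0.768. *Ptprc* ranged from 13.1% to 15.9% of the summed CD3 chains over the 4 libraries. Gene-level FPKM do not tell the CD45 isoforms apart. *Ptprc* lies on the minus strand at chr1:138062859-138175756, where the unconfirmed transcript A130071D04Rik overlaps it on the same strand, so fragments of the overlap are uncertain.

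The order of the levels was *Cd8a* and *Ptprc* at the top, then *Cd2*, *Cd6*, *Cd5* and *Cd4*, then *Thy1*, then *Cd8b1*. *Cd8a* was first in 3 libraries and *Ptprc* in CD4Cre-labelled 1, at 112.1% of *Cd8a* there and 88.7% to 95.7% elsewhere, so this pair of neighbours did not differ beyond its spread. *Cd2*, *Cd6* and *Cd5* exchanged the places below them between libraries and did not differ from each other beyond their spread. *Cd4*, *Thy1* and *Cd8b1* held the sixth, the seventh and the eighth place in every library. FPKM are per length of transcript, so these levels can be compared between genes.

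The highest library exceeded the lowest by 1.65-fold for *Cd8a* and 1.53-fold for *Ptprc*, and by 4.04-fold for *Cd2*. For *Cd4*, *Cd5*, *Cd6* and *Thy1* the ratio was 9.64, 11.2, 11.3 and 11.03. All 7 genes tested were lowest in CD4Cre-labelled 3, as were 32.5% of all genes. A lowest value in that library by more than 1 on the log2 scale, a criterion chosen after the values were seen, was met by *Cd4* (1.42), *Cd5* (2.21), *Cd6* (1.92) and *Thy1* (1.25), 4 of 7, and by 0.708% of all genes tested. In 5 of 7, *Cd4*, *Cd2*, *Cd5*, *Cd6* and *Thy1*, both libraries numbered 1 lay above both numbered 3, a pattern of 22.8% of all genes. Between the controls alone, whose genotype is the same, *Cd4* differed by 3.02-fold, *Cd2* by 2.87-fold, *Cd6* by 2.50-fold, *Thy1* by 1.97-fold and *Cd5* by 1.92-fold. *Cd8a* and *Ptprc* differed there by 1.11-fold and 1.05-fold.

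**Figure D2:**
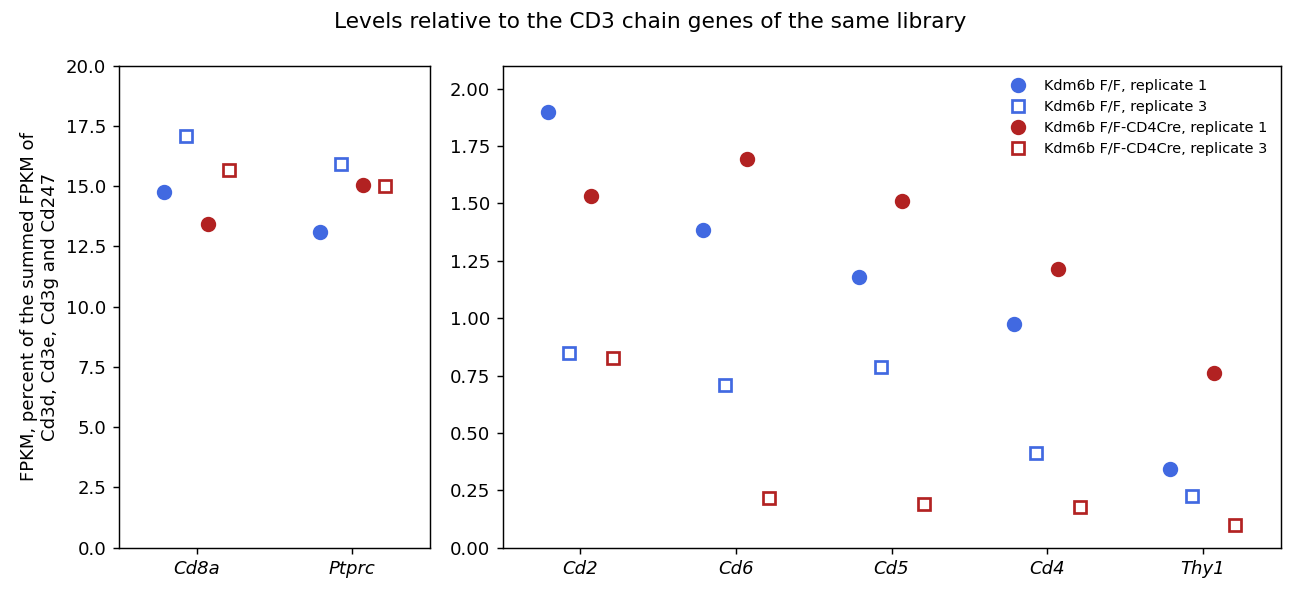
FPKM of 7 of the genes as a percent of the summed FPKM of *Cd3d*, *Cd3e*, *Cd3g* and *Cd247* of the same library, with separate vertical axes for the high genes (left) and the lower ones (right) and the 4 libraries as in the legend. *Cd8a* lies between 13.4% and 17.1% and *Ptprc* between 13.1% and 15.9%, while *Cd6* runs from 0.215% to 1.69%, with CD4Cre-labelled 3 lowest for all 5 genes on the right.

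Set against the CD3 chains of the same library, the spread of the lower genes was smaller, the highest share exceeding the lowest by 2.301-fold for *Cd2*, 6.854-fold for *Cd4*, 7.996-fold for *Cd5*, 7.892-fold for *Cd6* and 7.869-fold for *Thy1*. *Cd5* was 1.18% of the summed CD3 chains in control 1, 0.788% in control 3, 1.51% in CD4Cre-labelled 1 and 0.189% in CD4Cre-labelled 3. *Cd4* was 0.974%, 0.414%, 1.21% and 0.177% in that order, and *Thy1* was 0.345%, 0.225%, 0.761% and 0.0967%. *Cd2* separated by number only, with 1.90% and 1.53% in the libraries numbered 1 and 0.847% and 0.825% in those numbered 3. For *Cd5*, *Cd6*, *Cd4* and *Thy1* the highest share of the CD3 chains was that of CD4Cre-labelled 1 and the lowest that of CD4Cre-labelled 3, so the CD4Cre-labelled pair enclosed the controls.

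Of the 12009 genes tested, limma called 0 between the labels at an adjusted p under 0.05 (0% of all genes, with 642 genes at an unadjusted p under 0.05), and 0 of the 7 tested genes described here, of which *Cd8a* had an unadjusted p under 0.05. All 7 had a negative log2 fold change, as had 5993 of all 12009 genes (5 of 7 and 1690 under scaling to the CD3 chains). Their median was −0.54 where the median of all genes was 0.00097. In 2 of 7, *Cd8a* and *Ptprc*, both CD4Cre-labelled libraries lay below both controls, as in 18.6% of all genes. Under scaling to the CD3 chains this held for 0 of 7 and for 390 of all 12009 genes. Scaling the libraries to the CD3 chains raised the median of all genes to 0.35. On that scale *Cd8a* had −0.13, *Cd2* −0.17, *Cd4* −0.38, *Cd6* −0.63 and *Cd5* −0.75, while *Thy1* (0.054) and *Ptprc* (0.058) turned positive, all 7 staying below the median of all genes. Without CD4Cre-labelled 3 the log2 fold changes of *Cd4* (0.75), *Cd2* (0.12), *Cd5* (0.49), *Cd6* (0.61) and *Thy1* (1.197) turned positive. *Cd8a* (−0.38) and *Ptprc* (−0.08) kept their sign. Without CD4Cre-labelled 1 the values were −2.17 for *Cd4*, −1.20 for *Cd2*, −2.66 for *Cd5*, −2.56 for *Cd6* and −1.68 for *Thy1*, again with no gene called. Without control 1, *Cd4* (0.04), *Cd2* (0.20) and *Thy1* (0.19) turned positive, while *Cd5* had −0.64 and *Cd6* −0.34, and without control 3 *Cd2* had −1.28, *Cd4* −1.46, *Cd6* −1.61 and *Thy1* −0.67. In these fits the lone library of a label is assumed to vary like the other pair. The libraries are pools, and nothing says which mice or days they share, so the p-values measure the spread between these pools alone.

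**Figure D3:**
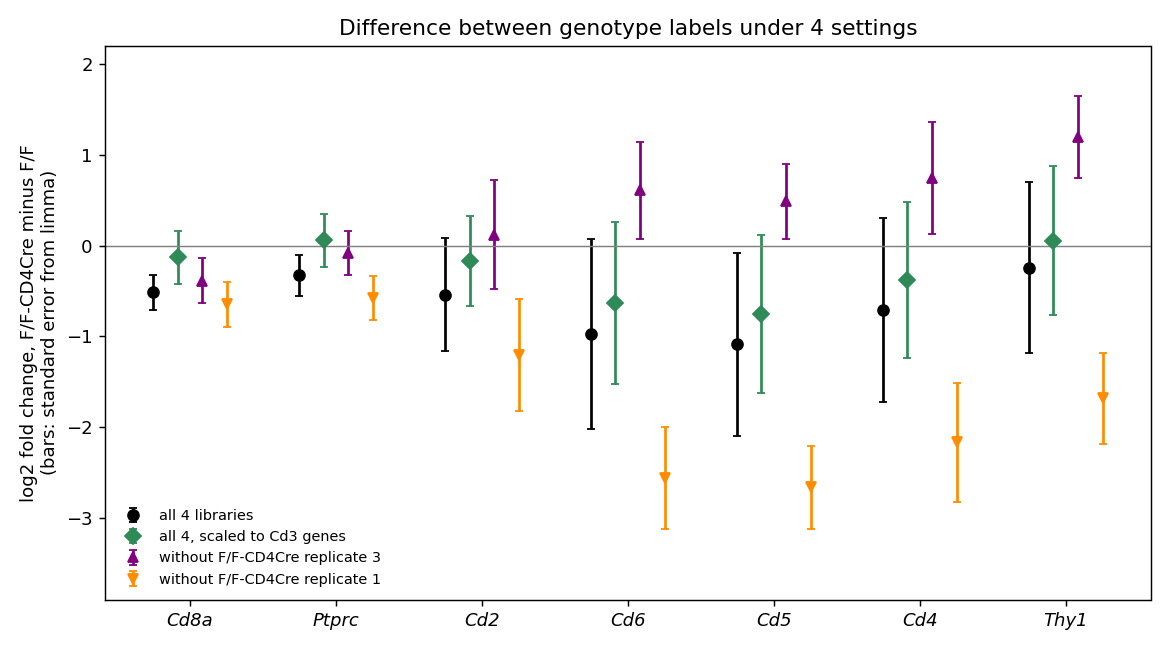
Log2 fold change (CD4Cre-labelled minus control) of the 7 genes tested, with standard errors from limma, with all 4 libraries (black), with scaling to the CD3 chains (green), without CD4Cre-labelled 3 (purple) and without CD4Cre-labelled 1 (orange). *Cd8a* stays negative in all 4 settings, whereas *Cd2*, *Cd6*, *Cd5*, *Cd4* and *Thy1* lie above 0 without CD4Cre-labelled 3 and below −1 without CD4Cre-labelled 1.

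The genes whose pattern over the 4 libraries was most like that of each gene were sought among 6886 genes with a mean of at least 10 FPKM, by the root mean square distance of log2 values after removal of each gene's mean. For *Cd4* they were *Sit1*, a transmembrane adaptor (0.16), *Tnfrsf4*, the costimulatory receptor OX40 (0.26), and *Cd28* (0.31). *Cd6* had *Sit1* (0.13) and *Icos*, a costimulatory receptor (0.21), nearest to it, and *Cd5* had a predicted transcript and *Icos* (0.19 each) and *Sit1* (0.22). *Thy1* was nearest to *Sh2d1a*, the adaptor of SLAM receptors (0.12), *Ifng* (0.14) and *Lat* (0.18). Among those near *Cd2* were *Pde7a* (0.22) and *Cables1* (0.23). None of the candidates lay within 0.1 of these 5 genes (0 of 6886). By contrast, 206 candidates lay within 0.1 of *Cd8a*, the nearest being *H2bc3*, *Ckm* and *Tmem9* (0.02 each). For *Ptprc* there were 369, the nearest being *Acot7*, *Zcchc18* (0.01 each) and *Cnep1r1* (0.02). The distance is not scaled to the spread of a gene, so genes that vary little, such as *Cd8a* and *Ptprc*, have more candidates near them. With only 4 libraries these distances describe the values and no more.

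The other surface genes of conventional T cells, 12 of 12 tested and 0 called, were spread in the same manner. In 10 of 12 both libraries numbered 1 lay above both numbered 3, as in 22.8% of all genes. Their summed level was 370 FPKM in control 1, 244 in control 3, 429 in CD4Cre-labelled 1 and 128 in CD4Cre-labelled 3, and none was at 0. The median log2 fold change was −0.34, with 8 negative values, and it turned to 0.018 under scaling to the CD3 chains and to 0.77 without CD4Cre-labelled 3. *Icos* (−1.04) and *Ctla4* (−0.71), an inhibitory receptor, had the most negative values, and *Ccr7* (0.44), a lymph node homing receptor, and *Cd44* (0.41), an adhesion receptor, the most positive. *Cd28*, the main costimulatory receptor, had 29.6, 15.6, 48.8 and 3.28 FPKM in the order above. The 6 genes of CD4 T cells, a list that holds *Cd4* itself and shares *Ctla4* and *Cd40lg* with the previous one, summed to 167 and 96.4 FPKM in the controls and 180 and 38.3 in the CD4Cre-labelled pair. *Foxp3*, the factor that defines regulatory T cells, had 1.79, 2.35, 2.08 and 1.67 FPKM, a narrower range than that of *Cd4*. *Cd40lg*, the CD40 ligand, had 11.8, 6.26, 18.9 and 1.30 FPKM, and *Il2ra*, a chain of the interleukin-2 receptor, 3.58, 2.93, 5.60 and 0.83 FPKM. *Zbtb7b*, the factor of the CD4 lineage, had 4.65, 4.20, 4.38 and 6.52 FPKM, highest in CD4Cre-labelled 3, and *Ctla4* alone made up 115, 70.5, 118 and 24.8 FPKM of the list's sum. The summed levels of both lists were lowest in CD4Cre-labelled 3, as were *Cd4*, *Cd5*, *Cd6*, *Cd2* and *Thy1*, and 5 of the 6 genes of CD4 T cells were lowest there, all but *Zbtb7b*. The part of other T cells in those levels was not tested.

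**Figure D4:**
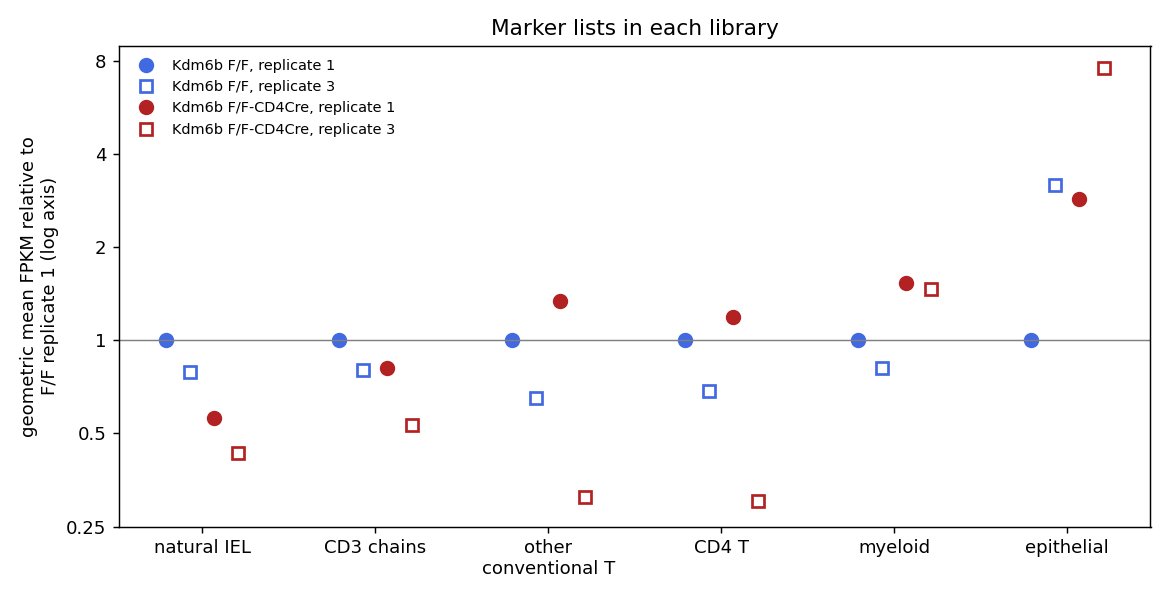
Geometric mean FPKM of 6 marker lists in each library relative to control 1 (log axis), with colours and symbols for the 4 libraries as in the legend. The lists of conventional T cells and CD4 T cells are highest in CD4Cre-labelled 1 and lowest in CD4Cre-labelled 3, natural IEL markers are lower in both CD4Cre-labelled libraries, and epithelial markers reach 7.60 times the level of control 1 in CD4Cre-labelled 3.

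Genes known for high levels in natural IELs, tested for 12 of 12 with 0 called, gave a median log2 fold change of −0.54. All 12 were negative, as were 5993 of all 12009 genes, and 9 lay below both controls in both CD4Cre-labelled libraries, as did 18.6% of all genes. The list holds *Klra5*, *Klrd1* and *Klre1*, which the study picked from these libraries, so its direction is not independent evidence. *Klre1* (−1.92) and *Klra5* (−1.26), receptors of the natural killer family with close paralogs whose reads the authors' counting could split, had the most negative values. *Tyrobp* (−0.45), a signalling adaptor, and *Gzma* (−0.47), a granzyme, were the least negative. Their summed level was 33320 and 22820 FPKM in the controls and 21560 and 16540 FPKM in the CD4Cre-labelled pair. Under scaling to the CD3 chains the median was −0.15 and all 12 stayed negative, as were 1690 of all 12009 genes. On that scale 7 lay below both controls in both CD4Cre-labelled libraries, as did 390 of all 12009 genes.

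The proteins that act with these receptors inside the cell, 20 of 20 tested and 0 called, had a median log2 fold change of −0.44 (−0.057 under scaling to the CD3 chains). Of these, 17 were negative, as were 5993 of all 12009 genes (13 and 1690 under that scaling). In 10 both CD4Cre-labelled libraries lay below both controls and in 2 both lay above, where 18.6% and 18.4% of all genes did. Under that scaling 4 lay below and 3 above, where 390 and 4159 of all 12009 genes did. *Lck*, the kinase held by the tails of CD8α and CD4, had 915 FPKM in control 1, 792.5 in control 3, 753 in CD4Cre-labelled 1 and 461 in CD4Cre-labelled 3. The most negative values were those of *Ptprcap* (−0.64), which binds CD45, and *Pstpip1* (−0.63), which binds the CD2 tail. The most positive were *Cd2ap* (1.23), another partner of the CD2 tail that epithelial cells also express, and *Csnk2a1* (0.12), a casein kinase subunit. *Cd2ap* had 2.21 and 4.19 FPKM in the controls and 6.41 and 11.4 FPKM in the CD4Cre-labelled pair. Like the epithelial markers it was lowest in control 1 and highest in CD4Cre-labelled 3, and the part of epithelial RNA in it was not tested.

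Of the 15 ligand genes 13 were tested and 0 called, with 6 negative values and a median of 0.47, which was −0.15 without control 3. *Cd48* (−0.48), the ligand of CD2, and *Itgb3* (−0.37), a subunit of an integrin that binds Thy1, were the most negative, and *H2-D1* (2.02) and *Cdcp1* (1.10), an epithelial ligand of CD6, the most positive. *H2-D1* had 9.37, 0, 21.8 and 6.47 FPKM, values that are uncertain because classical class I genes are near-identical in sequence. *H2-T3*, which encodes the thymus leukaemia antigen, had 2.85 FPKM in control 1, 11.7 in control 3, 8.97 in CD4Cre-labelled 1 and 13.2 in CD4Cre-labelled 3. Like the epithelial markers it was lowest in control 1 and highest in CD4Cre-labelled 3. The MHC class II gene *H2-Ab1*, part of the ligand of CD4, had 698 and 495 FPKM in the controls and 1229 and 741 FPKM in the CD4Cre-labelled pair. For myeloid cells, 11 of 12 markers were in the tables and none was at 0, and they summed to 479, 327, 553 and 747 FPKM. The 6 B cell markers summed to 55.3, 33.7, 84.8 and 31.6 FPKM, with *Pax5* at 0 in control 1. Of 8 markers of γδ T cells 4 were in the tables, without the receptor genes themselves, and they summed to 13.2, 7.51, 10.04 and 9.14 FPKM, with *Blk* at 0 in control 1.

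All 17 transcription regulators known to act on the choice between *Cd4* and *Cd8* were tested and 0 called, with 10 negative values and a median of −0.19, which was 0.19 under scaling to the CD3 chains and 0.30 without CD4Cre-labelled 3. In 3 both CD4Cre-labelled libraries lay below both controls and in 2 both lay above, no larger a share than the 18.6% and 18.4% of all genes. Under scaling to the CD3 chains 1 lay below and 9 above, where 390 and 4159 of all 12009 genes did. The most negative were *Runx3* (−0.67), which silences *Cd4* and activates *Cd8a*, and *Lef1* (−0.54). The most positive were *Myb* (0.51) and *Zbtb17* (0.25). *Gata3*, needed for CD4 T cell development, had 49.0 and 40.1 FPKM in the controls and 60.2 and 24.9 FPKM in the CD4Cre-labelled pair. *Lef1* had 8, 5.66, 8.52 and 1.98 FPKM in the order above, with CD4Cre-labelled 3 lowest as for *Cd5* and *Cd6*.

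The windows from 250 bases before to 50 bases after the start of *Cd8a* and *Cd5* are shown, as RefSeq gives them for GRCm38.p6, since they stand for the evenly expressed and the widely spread genes. A window was found for 3 of the 8 genes, the other being *Ptprc*. That of *Cd8a* is chr6:71373177-71373476 on the plus strand and that of *Cd5* is chr19:10738925-10739224 on the minus strand. The *Cd5* window is set on a start inside the gene bounds given above, not on their outer end. Capitals mark the ETS core GGAA on either strand.
Cd8a: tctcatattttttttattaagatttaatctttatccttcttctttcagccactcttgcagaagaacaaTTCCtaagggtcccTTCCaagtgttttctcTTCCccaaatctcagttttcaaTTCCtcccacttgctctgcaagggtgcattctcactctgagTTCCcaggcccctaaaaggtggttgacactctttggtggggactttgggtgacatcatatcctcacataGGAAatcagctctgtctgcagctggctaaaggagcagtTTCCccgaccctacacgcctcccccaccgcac
Cd5: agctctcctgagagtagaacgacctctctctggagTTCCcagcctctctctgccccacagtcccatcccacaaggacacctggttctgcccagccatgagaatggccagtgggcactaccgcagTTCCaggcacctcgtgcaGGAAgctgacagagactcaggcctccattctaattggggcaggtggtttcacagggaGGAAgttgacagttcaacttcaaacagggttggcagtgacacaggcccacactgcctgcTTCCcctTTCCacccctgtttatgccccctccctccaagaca

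On both strands GGAA was found 7 times in the window of *Cd8a* and 6 times in that of *Cd5*, and it is present in 96.0% of 32851 promoter windows of the same length. The RUNX core TGTGGT was found in neither window and is present in 16.8% of all. The E-box CANNTG occurred 3 times in the first and 2 times in the second, and in 72.3% of all windows. GATA occurred 2 times in the first and 0 times in the second, and in 57.9% of all windows. These counts describe letters in the windows and no more.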

How the data were processed

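RNA of sorted TCRαβ+CD8αα+ IELs was sequenced in 4 libraries, 2 of each genotype. Per the study's methods and the submitters' processing notes, the authors mapped clean reads to mm10 (the notes also name GRCm38.p5) with HISAT and Bowtie2 2.2.5 and quantified genes with RSEM 1.2.8. The deposited values are FPKM for 19339 genes, which the authors had scaled to transcript length and to mapped fragments, and 18467 were given a symbol from RefSeq.

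Here log2(FPKM + 1) was tested without further scaling for the 12009 genes that reached 1 FPKM in 2 or more libraries, with limma 3.58.1 (lmFit, eBayes with a trend, R 4.3.3) and Benjamini-Hochberg adjustment. Tables were read in Python 3.11.15 (pandas 2.3.3, numpy 2.4.6) and plotted with matplotlib 3.10.9. The model was run on simulated data with noise independent between libraries, and it called all 200 genes changed by 2 or by 4 on the log2 scale. The spread by replicate number seen here was not simulated, so that run does not show the power of the test in these libraries. Ratios within a library were compared with exact permutation tests. The *Cd8b1* to *Cd8a* ratio was planned on the log2 scale, which the value at 0 does not allow, and is given in percent. Depth came from steps in FPKM multiplied by length, 0.0834 to 0.101 per fragment over 43 to 202 genes a library. Floors in fragments cover counting error only, whereas the ± values are SDs or limma standard errors and measure the spread between libraries. Coordinates came from GENCODE M21 and RefSeq (GRCm38), and sequences from RefSeq and the study's primer list.

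The genes described were chosen by name, without use of their values. They, the lists and the tests were nonetheless fixed with earlier results of these data known. All 8 genes were named, and from each list whose median is given the 2 most positive or least negative and the 2 most negative genes, since none was called. From the epithelial, CD4 T cell, myeloid, B cell and γδ T cell lists no genes were picked in this way. *Cd28*, *Foxp3*, *Lck*, *H2-T3*, *H2-Ab1*, *Gata3*, *Zbtb7b*, *Cd40lg* and *Il2ra* were named after their values were seen. Alternatives were the pseudocount, the filter, 3 scalings, the replicate block, limma without a trend and leaving out each library. Receptor genes of γδ T cells and *Xcr1* were not analysed here. In the comparison of patterns, 1 gene near *Cd2* is not reported here.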

Additional observations from a re-analysis of the deposited data

How the results depend on the processing

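Over 14 alternatives the 7 log2 fold changes gave 98 values, of which 83 kept their sign and their side of the threshold, 12 changed sign and 3 passed the threshold. Those that changed sign were *Thy1* (0.054) and *Ptprc* (0.058) under scaling to the CD3 chains, with and without the block, and values from leaving out a library. Leaving out each library in turn gave −2.17 to 0.75 for *Cd4*, −1.28 to 0.20 for *Cd2*, −2.66 to 0.49 for *Cd5*, −2.56 to 0.61 for *Cd6* and −1.68 to 1.197 for *Thy1*. It gave −0.65 to −0.38 for *Cd8a* and −0.57 to −0.08 for *Ptprc*. The log2 *Cd4* to *Cd8a* ratio ran from −1.82 to 1.18 in that way, and from −0.48 to −0.19 under the others. The *Cd8b1* share of *Cd8a* stayed between 0.153 and 0.38 percentage points higher.

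No pairing of the same-numbered libraries is stated, and with 2 pairs the numbers were not taken to pair them. Their deviations from the group means correlated at 0.56 across genes, which are not independent. With the replicate number as a block limma called 1019 genes, 886 higher (7.38%) and 133 lower (1.11%), and 1 of the genes described, *Cd8a* (adjusted p = 0.0396). With the block and scaling to the CD3 chains together it called 3626 genes, 3557 higher and 69 lower, and 2 of the genes described, *Cd5* (adjusted p = 0.00672) and *Cd6* (adjusted p = 0.0197). The other alternatives, leaving out a library included, called 0 genes.

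Under scaling to the CD3 chains, with or without the block, ligands had 0.75, regulators 0.19 and natural IEL markers −0.15. With at least 5 FPKM in 2 libraries ligands had 0.23. These medians moved by more than the spread of the list's library means. Leaving out a library gave −0.15 to 0.41 for ligands, −0.47 to 0.30 for regulators, −0.97 to 0.77 for conventional T cell genes and −0.83 to −0.36 for natural IEL markers, past that spread for some of the libraries. The median of the partners stayed within it throughout, from −0.76 to −0.057. The cause was not tested. Depth limits *Cd8b1*.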

Other observations

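In CD4Cre-labelled 3, 85 of 12009 genes were lower than in every other library by more than 1 on the log2(FPKM + 1) scale, a criterion chosen after the values were seen. They hold *Cd4*, *Cd5*, *Cd6* and *Thy1* and 14 predicted transcripts. The examples that follow were chosen after their values were seen. *Gzmk*, a granzyme, had 32.1 FPKM in control 1, 9.05 in control 3 and 63.1 in CD4Cre-labelled 1, and was listed at 0 in CD4Cre-labelled 3. *Ly6a*, which encodes Sca-1, had 38.6, 29.5, 66.0 and 3.98 FPKM in the same order. *Ms4a4b*, a T cell membrane protein, had 103, 77.0, 200.2 and 17.4 FPKM, and *Lgals1*, a galectin, had 84.2, 77.8, 232 and 22.4 FPKM. For these 4 genes CD4Cre-labelled 1 was the highest library and CD4Cre-labelled 3 the lowest, as for *Cd5* and *Thy1*. Receptors of the natural killer family in the same group of 85 had the controls highest. *Klra7* had 57.6 and 63.6 FPKM in the controls and 23.8 and 9.14 in the CD4Cre-labelled pair, and *Klra1* had 15.8, 17.2, 8.46 and 1.33 FPKM in the order above. Both are uncertain because close paralogs share reads.

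Haemoglobin genes, which mark red cells, followed another order. *Hba-a1* had 9.68 FPKM in control 1, 75.6 in control 3, 11.1 in CD4Cre-labelled 1 and 0.20 in CD4Cre-labelled 3. *Hbb-bs* had 7.62, 56.6 and 9.41 FPKM and was listed at 0 in CD4Cre-labelled 3.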
